A study of Lolium perenne with 10 samples.

Results

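The temperature treatment group whose libraries are titled cold was compared with untreated control by RNA-seq of leaves of perennial ryegrass (Lolium perenne), which is grown for pasture and lawns in temperate regions. The comparison rests on 4 of the 10 libraries of the series, 2 from the title-cold group and 2 from control, taken by their labels. The labels of the title-cold group contradict each other, because its titles say cold and its treatment field says heat. Both labels are therefore kept, no temperature is attached to the group, and the name title-cold refers to the title alone. Its mirror image is the title-heat group, with heat in the titles and cold in the treatment field.

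All groups are wild type, and each library came from 30 seedlings raised at day and night temperatures of 22 and 18 °C, in a photoperiod of 16 h, an irradiance of 150 µmol per m2 per s and a humidity of 65%. Seeds of all groups, controls included, were first stratified at 4 °C for 5 days. Per the design text, seedlings of the temperature groups were 14 days old and spent 12 h at either 4 °C or 42 °C, whereas the protocol text, which speaks of Arabidopsis, gives 6 h at 4 °C and a recovery of 5 days. The age of the control seedlings is not given in the sources used here, so a difference in age and the treatment cannot be told apart. Drought (water withheld for 7 days, starting with seedlings aged 7 days), submergence (duration not given in the sources used here) and title-heat complete the series with 2 libraries each. Whether replicates came from separately grown batches of plants is not stated, and p-values measure the spread between libraries, which may be technical.

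In temperate grasses, chilling is known to activate CBF transcription factors and their cold-responsive targets, and acclimation brings fructan storage and membrane changes. Heat is known to release heat shock factors that switch on chaperone genes, and both extremes commonly lower transcripts of the photosynthetic apparatus, which are among the most abundant of a leaf. None of these genes could be looked up. Transcripts are listed as assembled sequence clusters, the deposited table pairs none of them with a gene name, and 0 of its 46394 identifiers matched the 56406 genes of the RefSeq table for the Kyuss_2.0 assembly. For the same reason the leaf label could not be checked against marker genes. The response is therefore described by the level, size and pattern of change of clusters, and by 4 clusters named by rule.

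Total counts were 10847727 and 11265620 in control and 10963004 and 11479502 in title-cold. Levels are CPM (counts scaled to library depth) and corrected by TMM factors, which were 0.825 and 0.913 in control and 1.24 and 1.31 in title-cold. These factors set where no change lies. With total counts in their place, the median log2 fold change of clusters at 1 CPM or more moved up by 0.55, and the counts of higher and lower calls below are given with that alternative where it was computed. The replicates of title-cold differed by a median of 0.271 on the log2 scale and those of control by 0.262.

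Leaves of the title-cold group differed from control in 23.3% of the clusters tested. Of 27571 clusters tested, 3047 were called higher (11.1%) and 3366 lower (12.2%) at an adjusted p below 0.05 by edgeR's quasi-likelihood test. The tested clusters include 3875 with 0 counts in all 4 libraries, which passed the filter through other groups. Among the 23696 with at least 1 read in these libraries, 27.1% were called. Both title-cold libraries lay above both controls in 8655 clusters (31.4%) and below both in 6998 (25.4%), and the groups overlapped in 11918 (43.2%), so most separations of the libraries did not pass the test. In whole leaves, fewer cells of a type and less RNA per cell cannot be told apart. With total counts 6977 clusters were called higher and 1869 lower, which turns the balance of the response.

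Many of the changes were large. A test of whether the change itself exceeds 2-fold (glmTreat in edgeR, adjusted p below 0.05) called 775 clusters higher (2.81%) and 1077 lower (3.91%). The higher ones had a median level of 2.11 CPM in control and 16.9 CPM in title-cold, and the lower ones went from a median of 43.8 CPM to 7.56 CPM. These levels describe clusters chosen by the same contrast. On total counts the same test called 1914 higher and 615 lower. Without 1 library at a time the higher calls beyond 2-fold numbered 323 without control replicate 1, 452 without control replicate 2, 508 without title-cold replicate 1 and 443 without title-cold replicate 2, and the lower calls numbered 711 without title-cold replicate 2.

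Size was also estimated for the called clusters alone, with a group at 0 counts set to the level of 3 counts per library. Changes of at least 4-fold were seen in 1066 of the higher calls (35.0%) and 1005 of the lower calls (29.9%). Changes of 16-fold or more numbered 202 upwards (6.63% of higher calls) and 222 downwards (6.60% of lower calls). Those of 64-fold or more numbered 43 (1.41%) and 34 (1.01%). Under total counts these numbers became 2262 and 595 at 4-fold, 377 and 146 at 16-fold, and 64 and 23 at 64-fold. Large changes were thus present in both directions under either scaling, while their balance was not fixed by these data.

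From 1 CPM upwards, the direction of change followed the level of a cluster. Classes were formed on the mean CPM over the 4 libraries, so that both groups entered it. For a cluster that changed by a large factor, the group with the higher level largely sets this mean. Clusters below 1 CPM had a median log2 fold change of 0, or of 0.16 without those that had no reads in these libraries. Clusters of 1 to 10 CPM had a median log2 fold change of 0.32, those of 10 to 100 CPM −0.01, those of 100 to 1000 CPM −0.72 and those above 1000 CPM −1.08. The median above 1000 CPM was 1.40 lower than that at 1 to 10 CPM, and a common scaling factor cannot change this difference. It ran from −1.59 to −1.15 when 1 of the 4 libraries was left out. The medians on total counts, from 1 CPM upwards, were 0.87, 0.54, −0.17 and −0.53 in the same order.

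**Figure D1:**
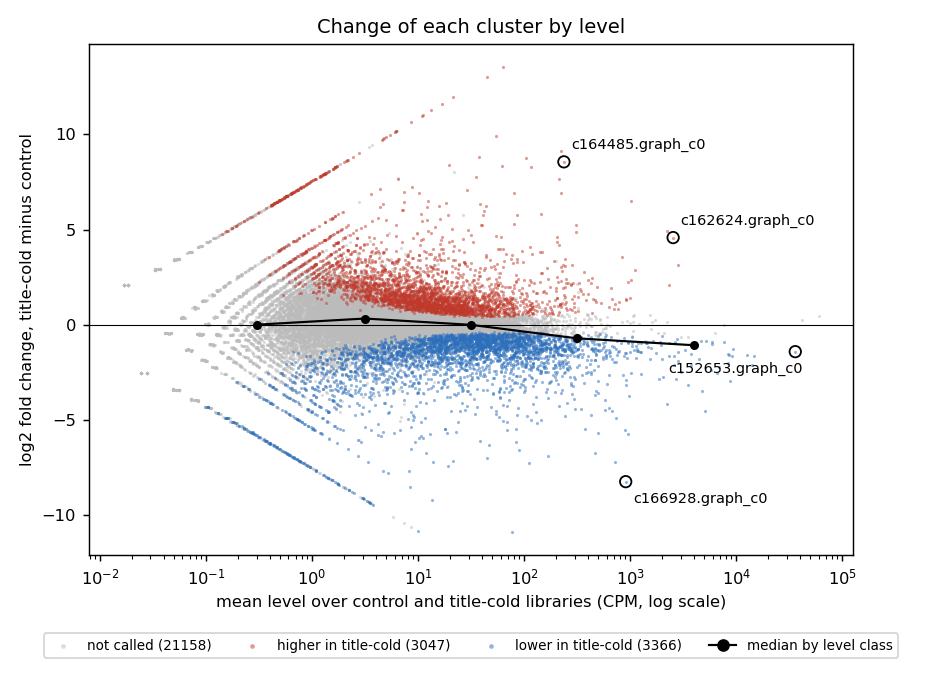
Log2 fold change of each cluster, title-cold minus control, against its mean CPM over the 4 libraries on a log axis, with called clusters in colour and the 4 named clusters circled. The black line joins the median of each level class, each placed at 1 level within its class, and falls from 0.32 at 1 to 10 CPM to −1.08 above 1000 CPM. The slanting lines of points at low levels are clusters with 0 or few counts in 1 group, whose fitted values depend on the prior count.

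Calls changed with level in the same way from 1 CPM upwards. Below 1 CPM, where the pattern did not hold, 195 clusters were called higher and 221 lower out of 8130. From 1 to 10 CPM higher calls prevailed, with 1265 against 817 of 10460 clusters. From 10 to 100 CPM there were 1424 higher and 1673 lower calls among 7834 clusters. From 100 to 1000 CPM 155 were higher and 589 lower among 1053, and above 1000 CPM 8 were higher and 66 lower among 94. More reads per cluster also give the test more power, and the share called rose from 5.12% in the lowest class to 78.7% in the highest, against 23.3% of all clusters tested. The lowest class holds the 3875 clusters without reads in these libraries, and among its other 4255 clusters 9.78% were called. On total counts the split became 410 higher and 161 lower below 1 CPM, 2936 higher and 444 lower from 1 to 10 CPM, 3334 and 807 from 10 to 100 CPM, 278 and 408 from 100 to 1000 CPM, and 19 and 49 above 1000 CPM. Lower calls therefore outnumbered higher ones above 100 CPM under both scalings, and higher calls outnumbered lower ones from 1 to 10 CPM.

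The 94 clusters above 1000 CPM held a large part of each library. Together the 66 that fell took 37.1% and 36.3% of all counts in control and 18.7% and 15.9% in title-cold, and their log2 fold changes ran from −4.56 to −0.61. The 8 that rose took 0.241% and 0.275% in control and 3.05% and 3.32% in title-cold, with log2 fold changes of 1.38 to 6.49. The 20 that were not called took 12.6% and 10.1% in control and 18.5% and 20.3% in title-cold. Most of this lay in the 2 most-read clusters of title-cold, which took 8.87% and 6.30% in control and 13.2% and 15.9% in title-cold. Shares of a library must sum to a whole, so the loss of some clusters raises the share of all others.

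Across all levels, clusters called lower accounted for most of the control library. The 3366 lower clusters held 64.4 ± 0.0613% of the counts in control (SD, n = 2) and 32 ± 2.59% in title-cold. The 3047 higher clusters held 4.17 ± 0.413% in control and 18.9 ± 0.7% in title-cold. These shares describe clusters chosen by this contrast, so the shift itself is no separate result. The libraries of the other groups enter the filter, the scaling factors and the spread of the model, but not the difference tested. In those groups the lower clusters held 60.3 ± 1.93% under drought, 58.4 ± 0.0973% in title-heat and 36.1 ± 1.01% under submergence. The higher clusters held 7.41 ± 0.291% under drought, 6.83 ± 0.228% in title-heat and 17.2 ± 0.293% under submergence.

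Counts were spread over more clusters in title-cold than in control. In each library, 50% of the counts came from the 85 and 117 most-read clusters in control and from 236 and 264 in title-cold. For 90% of the counts, 3989 and 4496 clusters were needed in control and 6266 and 6721 in title-cold. The 100 most-read clusters of each library held 50.1 ± 2.34% in control and 41.5 ± 0.315% in title-cold (SD, n = 2, exact two-sided permutation p = 0.333, the smallest that 2 against 2 libraries allow). The groups did not overlap on any of these measures. The 10 most-read clusters did not share the pattern, with 24.0% and 21.0% in control and 22.0% and 23.0% in title-cold, where the groups overlapped. A wider spread than in control was not particular to title-cold. For 50% of the counts, 167 and 185 clusters were needed in drought, 178 and 154 in title-heat, and 668 and 576 in submergence.

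**Figure D2:**
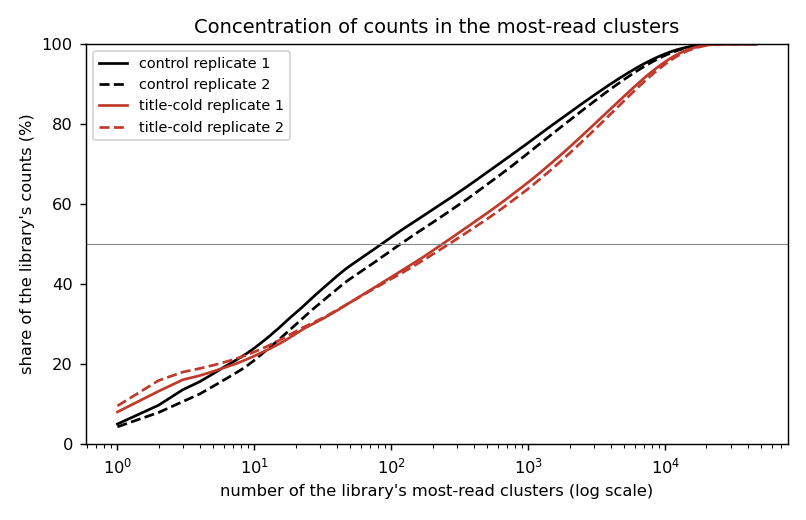
Share of a library's counts (%) held by its most-read clusters, added up from the most-read on, against their number on a log axis, for the 2 control and 2 title-cold libraries. The title-cold curves start higher at the first clusters, cross the control curves near 10 clusters and then stay below them, reaching 50% at 236 and 264 clusters against 85 and 117.

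A pair of clusters dominated the title-cold libraries. The most-read one held 8.04% and 9.56% of the counts there, against 5.01% and 3.59% in control. The next held 5.19% and 6.35%, against 3.86% and 2.71%. Together they took 13.2% and 15.9% of title-cold, 8.87% and 6.30% of control, 2.91% and 4.35% under drought, 2.83% and 3.53% under submergence and 5.37% and 6.57% in title-heat. Their shares were thus higher in both title-cold libraries than in any of the other 8. On the scaled levels neither differed from control by edgeR's test, with log2 fold changes of 0.47 (95% interval −0.17 to 1.1, adjusted p = 0.285) and 0.25 (−0.42 to 0.92, adjusted p = 0.659). With total counts both were called higher, at 1.04 (adjusted p = 0.00934, edgeR) and 0.82 (adjusted p = 0.0403, edgeR), and the first was also called with no filter on low counts, at 0.45 (adjusted p = 0.000149, edgeR). Without control replicate 2 the second cluster's value was −0.052 (adjusted p = 1, edgeR). Whether these clusters rose therefore depends on the scaling, for the first also on the filter, and the sign of the second on control replicate 2. They were singled out for their level after the values were seen.

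The ranking of the most-read clusters was partly exchanged. Of the 100 most-read clusters of control by mean share, 69 were also among the 100 most-read of title-cold, while replicates shared 95 in control and 88 in title-cold. The 31 that entered had a median rank of 240 in control, and the 31 that left had a median rank of 174 in title-cold. Of the 100 most-read clusters of control 84 were called lower and 0 higher by edgeR's test, and of the 100 most-read of title-cold 53 were called lower and 23 higher, against 12.2% lower and 11.1% higher among all clusters tested. Among the 94 clusters above 1000 CPM, 70.2% were called lower and 8.51% higher. Ranking by level in 1 group itself favours a call in 1 direction, and the calls by rank were not computed on total counts. Among the 1000 most-read, 670 were shared between the groups, against 926 between the control replicates and 898 between the title-cold replicates. A mean of 2 libraries is ranked in the first number and single libraries in the other 2.

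More clusters were detected in title-cold. After every library was thinned to 10847727 counts, clusters with at least 10 counts numbered 18079 and 18645 in control and 20471 and 21173 in title-cold. The means were 18362 ± 400 and 20822 ± 496 (SD, n = 2), a difference of 2460 clusters that exceeded the spread between replicates (exact two-sided permutation p = 0.333, the smallest possible here). At a threshold of 1 count the difference was 1554.5. Equal totals are not equal depth on the scaled levels. Before thinning, 3 counts stood for 0.336 and 0.292 CPM in control and for 0.221 and 0.200 CPM in title-cold. A cluster of unchanged scaled level thus gets more reads in title-cold, and how much of the difference this makes was not tested. Few of the added clusters lacked reads in control. Only 141 had 0 counts in both controls and at least 10 in both title-cold libraries, and 55 had the reverse pattern. These 2 numbers come from counts that were not thinned, and 10 counts are a lower CPM in title-cold than in control. The lowest level was 0.703 CPM among the 141 and 1.05 CPM among the 55, so the numbers are not strictly comparable. A count of 0 allows up to 3 counts, about 0.336 and 0.292 CPM in the control libraries, and such limits cover counting error only. More detected clusters than in control were not particular to title-cold. After thinning, submergence had 25929 and 24930 clusters with at least 10 counts, drought 18482 and 18635, and title-heat 18008 and 17674.

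The 141 clusters read in title-cold but not in control had a median level of 1.67 CPM, 14 of them exceeded 10 CPM and the highest reached 127 CPM. They held 0.079% and 0.101% of the title-cold counts. As the pattern itself nearly fixes the outcome of the test, their calls are not counted here. In the other stress groups, 10 counts or more were found in both libraries of submergence for 21 of the 141, of title-heat for 10 and of drought for 9, and 5 had 0 counts in all 6 libraries of those groups. The 55 clusters read in control alone of the pair had a median level of 2.54 CPM and the highest reached 19.9 CPM. Of these 55, 21 reached 10 counts in both libraries of drought, 16 in those of title-heat and 9 in those of submergence.

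Among 5075 called clusters with at least 10 counts in each of the 4 libraries and no overlap of the groups, the largest rise by fold was that of c164485.graph_c0. It had 10 and 14 counts in control and 6056 and 7463 in title-cold. Its level went from 1.24 ± 0.172 CPM to 473 ± 36.6 CPM (SD, n = 2), 381-fold higher by the ratio of means, with a log2 fold change of 8.55 ± 0.24 (SE, adjusted p = 4.19e-07, edgeR). From rank 17694 in control it moved to rank 149. The cluster was read in other groups as well, with 206 ± 10.1 CPM under submergence and 136 ± 23.4 CPM in title-heat, while drought had 2 and 1 counts. Title-cold lay above each of these groups, by 1.2 on the log2 scale over submergence (adjusted p = 0.000437, edgeR) and 1.79 over title-heat (adjusted p = 4.32e-05, edgeR).

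The largest fall by fold was that of c166928.graph_c0. Its counts were 16855 and 17772 in control and 99 and 69 in title-cold. The level dropped from 1808 ± 111 CPM to 5.96 ± 1.91 CPM (SD, n = 2), 303-fold lower by the ratio of means, with a log2 fold change of −8.25 ± 0.26 (SE, adjusted p = 7.5e-07, edgeR). In drought it stood at 1764 ± 104 CPM and in title-heat at 1698 ± 47 CPM, and title-cold was lower than both (log2 fold changes −8.21 and −8.16, adjusted p = 9.09e-07 and 3.35e-07, edgeR). Submergence had an intermediate level of 439 ± 33.8 CPM, and title-cold was lower than submergence by a log2 fold change of −6.20 (adjusted p = 1.34e-06, edgeR). This abundant leaf transcript, rank 64 in control, thus fell to rank 11744 in title-cold.

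The largest rise in CPM was that of c162624.graph_c0, which had 1647 and 2304 counts in control and 56214 and 83773 in title-cold. Its level of 204 ± 28.2 CPM in control became 4873 ± 1025 CPM (SD, n = 2), a 23.9-fold rise with a log2 fold change of 4.58 ± 0.30 (SE, adjusted p = 1.52e-05, edgeR). The cluster moved from rank 600 to rank 12. Levels in the other groups were 356 ± 92.9 CPM under drought, 455 ± 142 CPM under submergence and 333 ± 10.9 CPM in title-heat. Title-cold was higher than each of these, by 3.78, 3.42 and 3.87 on the log2 scale (adjusted p = 1.62e-05, 3.38e-05 and 1.47e-05, edgeR).

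The largest fall in CPM was that of c152653.graph_c0, the most-read cluster of control by mean share. It took 4.72% and 4.32% of the counts in control and 2.85% and 2.10% in title-cold. The level fell from 52366 ± 7034 CPM to 19611 ± 4914 CPM (SD, n = 2), 2.67-fold lower, with a log2 fold change of −1.42 ± 0.23 (SE, adjusted p = 0.00204, edgeR). The test of a change beyond 2-fold did not call it (adjusted p = 0.129, glmTreat in edgeR). With total counts the log2 fold change was −0.87, and without title-cold replicate 2 it was −1.18, and both kept it called. Drought and title-heat had 45276 ± 7084 and 45664 ± 2369 CPM, above title-cold (adjusted p = 0.00257 and 0.0027, edgeR), whereas submergence had 11817 ± 1421 CPM, below title-cold by 0.73 on the log2 scale (adjusted p = 0.0225, edgeR).

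**Figure D3:**
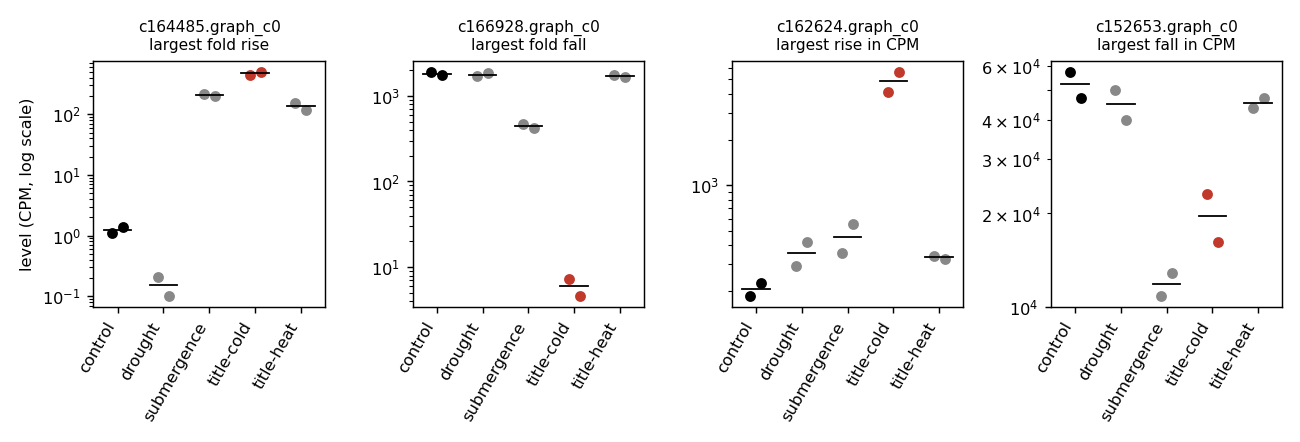
Level of the 4 named clusters (CPM scaled by TMM factors, log axis, 1 scale per panel) in all 10 libraries, where each point is a library and each line the mean of a group of 2. Both title-cold points lie above all others for c164485.graph_c0 and c162624.graph_c0, below all others for c166928.graph_c0, and between submergence and the other groups for c152653.graph_c0.

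Direct tests against the other stress groups asked where title-cold stood apart without reference to the control level. It differed from drought in 11408 clusters (41.4%), from submergence in 13403 (48.6%) and from title-heat in 10307 (37.4%) by edgeR's test. DESeq2 called 10636, 9288 and 9649 in the same order, so the ranking of the groups depends on the method. Of the edgeR calls, 5482 (19.9%) were higher and 5926 (21.5%) lower than in drought. Against submergence 4784 (17.4%) were higher and 8619 (31.3%) lower, and against title-heat 4915 (17.8%) were higher and 5392 (19.6%) lower. With total counts the splits were 8795 and 3906, 4332 and 8943, and 9922 and 3239. The surplus of lower clusters against submergence was present under both scalings, while the other splits turned. Some tested clusters passed the filter through submergence and had no reads in title-cold, so their lower call was nearly fixed. Their number was not computed, and no conclusion is drawn from this surplus. Without submergence replicate 1 or 2 the calls against submergence numbered 7385 or 7737, and without title-heat replicate 1 or 2 those against title-heat numbered 6525 or 6719.

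A group of clusters separated title-cold from the whole series. In all 4 tests, against control, drought, submergence and title-heat, 838 clusters were called higher in title-cold (3.04%) and 1079 lower (3.91%). These tests share the title-cold libraries. The higher ones had a median level of 20.2 CPM in title-cold and of 5.46, 3.94, 5.31 and 4.29 CPM in control, drought, submergence and title-heat. The lower ones had a median of 10.3 CPM in title-cold against 31.7, 46.7, 32.3 and 52.3 CPM in the same order. By share of the library, the higher clusters took 7.15% and 7.80% of the counts in title-cold and 1.28% to 2.14% in the other 8 libraries. The lower ones took 4.27% and 4.21% against 12.0% to 17.4%. Being chosen for this pattern, the clusters are described and not tested again. Under total counts the sets held 1581 higher and 593 lower clusters. When 1 of the 10 libraries was left out, the higher set numbered 382 to 720, with 408 and 495 without control replicate 1 and 2, 501 and 496 without submergence replicate 1 and 2, 454 and 382 without title-cold replicate 1 and 2, and 507 and 496 without title-heat replicate 1 and 2.

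**Figure D4:**
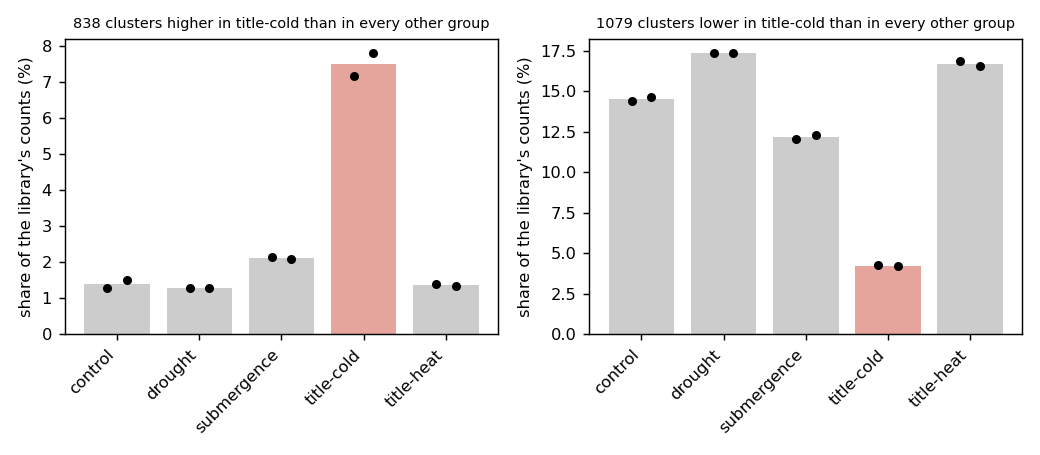
Share of each library's counts (%) in the 838 clusters higher (left) and the 1079 clusters lower (right) in title-cold than in every other group, where points are libraries and bars are means of 2. The title-cold points lie at 7.15% and 7.80% on the left, above the other libraries, and at 4.27% and 4.21% on the right, below them, as the choice of clusters requires.

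**Figure D5:**
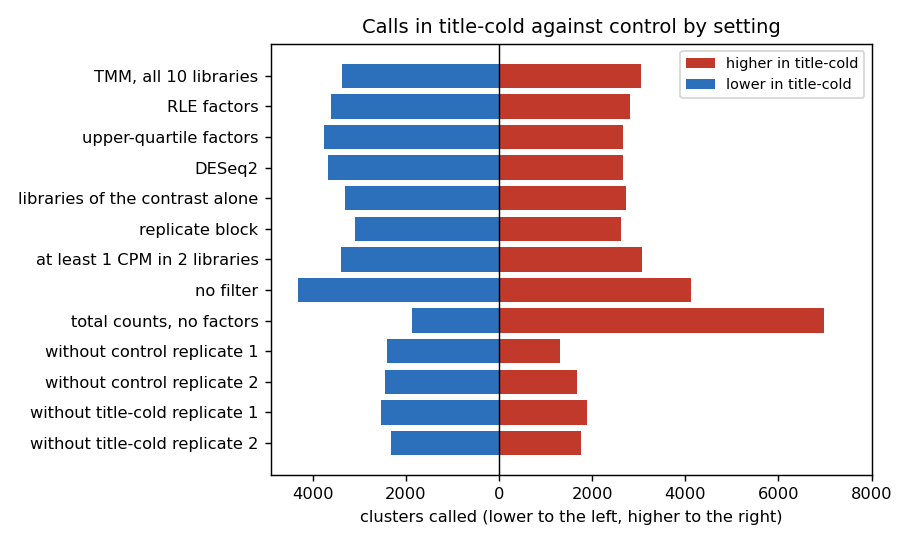
Number of clusters called higher (right of 0) and lower (left of 0) in title-cold against control under each setting of the analysis. Lower calls outnumber higher ones in each setting drawn except total counts, with 6977 higher and 1869 lower, and leaving out control replicate 1 gives the fewest higher calls, 1315.

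The plot of calls by setting shows how far the balance of the response can be read. Higher calls made up 47.5% of all calls with TMM factors, 43.9% under RLE scaling, 41.5% under upper-quartile scaling and 42.0% in DESeq2. With total counts the share was 78.9%. Total counts leave out the scaling factors, which moved the median log2 fold change of clusters at 1 CPM or more up by 0.55. Why the factors differ between the groups was not tested. Leaving out control replicate 1 gave 1315 higher and 2412 lower calls, control replicate 2 gave 1677 and 2448, title-cold replicate 1 gave 1892 and 2543, and title-cold replicate 2 gave 1767 and 2315. A group of 1 library gives a weaker test, and its spread is then assumed to be that of the other groups.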

How the data were processed

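RNA-seq of leaves was analysed in 10 libraries, 2 per group, grouped by their titles. The authors deposited whole-number read counts per assembled cluster. Per the submitters' processing notes, RSEM and DESeq 1.10.1 were used, in roles that are not stated, and if RSEM made the counts, they are rounded estimates in which reads shared by similar sequences were split. The aligner and the assembly are not stated in the sources used here. The file is named for bermudagrass and cold within perennial ryegrass, and the extraction protocol speaks of bermudagrass. Its columns match the sample descriptions, and whether the counts belong to another experiment was not tested.

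Clusters were filtered with filterByExpr (minimum count 10, minimum total 15), which kept 27571 of 46394 and at least 99.24% of each library's counts. One edgeR 4.0.16 quasi-likelihood model (R 4.3.3, TMM, robust) covered all 10 libraries, with 5 residual degrees of freedom and Benjamini-Hochberg adjustment at 0.05 over all clusters tested. Changes beyond 2-fold were tested with glmTreat. The script was tested on simulated data. The counts of replicates were compared by chi-square, which per degree of freedom was 5.76 or more in each group, so every library was kept as a replicate. The named clusters are the largest rise and fall by fold and by CPM, among called clusters with at least 10 counts in each of the 4 libraries and no overlap of the groups. Groups, classes and tests were chosen with earlier results of these data known. Alternatives were RLE, upper-quartile and no factors, other filters, DESeq2 1.42.0, a replicate block, the libraries of a contrast alone, and each library left out.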

Additional observations from a re-analysis of the deposited data

How the results depend on the processing

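Of 178 values recomputed under other settings, 146 held, 31 moved and 1 reversed. Fold changes held if they kept their direction and their side of the threshold, and counts of calls if they stayed within 1.5 times. Differences in detected clusters and in shares held if they kept their sign and stayed within 1 SD. The named clusters gave 48 of the 178 values, and all 48 are among those that held. The 4 named clusters were called in the same direction under all 12 alternatives each, with an adjusted p of at most 0.0153 (edgeR or DESeq2). These 4 were picked as extremes of the same data among clusters already called, so that outcome was nearly fixed in advance. Total counts moved the calls against control to 6977 higher and 1869 lower, and those beyond 2-fold to 1914 and 615. The clusters apart from every other group became 1581 higher and 593 lower. With no filter the calls beyond 2-fold numbered 1451 higher and 1720 lower, and with DESeq2 419 higher, in place of 775. With libraries left out in turn, higher calls numbered 1315 to 1892 and lower calls 2315 to 2543, higher calls beyond 2-fold 323 to 508 and lower ones 711 to 851. Clusters higher in title-cold than in every other group then numbered 382 to 720 and lower ones 738 to 1021. Calls against drought were 8374 to 9053, against submergence 7385 to 10064, with 7385 and 7737 without submergence replicate 1 and 2, and against title-heat 6525 to 7941, with 6525 and 6719 without title-heat replicate 1 and 2. The gain in detected clusters was 1554.5 at 1 count and 2109 to 2811 with a library left out. The share of the 10 most-read clusters differed by 0.0444 percentage points upwards, against −8.56 for the 100 most-read, which ran from −10.2 to −6.90 with a library left out. The second most-read cluster of title-cold ran from −0.052, without control replicate 2, to 0.56, without control replicate 1, a result added after seeing the data. The cause of these moves was not tested, except for what the settings do by design. Total counts leave out the scaling factors, fewer libraries weaken the test and other filters change the clusters tested.

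Replicate numbers are shared between groups but the labels tie them to no common batch, and deviations of same-numbered libraries correlated at 0.0217 between control and title-cold. With the replicate number as a block, 2618 clusters were called higher and 3099 lower. With 2 libraries per group, no permutation test over libraries can pass 0.05, and clusters below 1 CPM were seldom called.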

Other observations

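Some cluster identifiers share the number before the point and differ in the ending, as pieces of 1 assembled unit would. Among the tested clusters, 2562 such numbers had at least 2 clusters and 22139 had 1. In 271 numbers at least 2 clusters were called between title-cold and control. All called clusters of a number moved in 1 direction in 211 of these and in both directions in 60. These counts use TMM scaling, and no expected number was computed for them. Whether the clusters of a number are copies, alleles or parts of a gene is not given in the sources used here, and reads split between similar sequences would couple their counts.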
